A study of Mus musculus with 20 samples.

Results

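Gene expression in the cerebral cortex was compared between tau transgenic and wild-type mice at 3 months of age, in 5 transgenic libraries (TG03M) and 5 wild-type libraries (WT03M), 10 of the 20 libraries of the study. The transgenic mice were of the line Tg(Prnp-MAPT*P301S)PS19Vle, which carries human MAPT with the P301S change behind the mouse prion protein promoter, and the controls had no transgene. Both genotypes were (C57BL/6 x C3H)F1 mice, and RNA-seq was done on total RNA of frozen tissue. The labels give neither sex nor batch and do not say that the replicates were separate animals, so p-values measure the spread between these samples. All 21949 genes of the mRNA table belong to the comparison, and the 13722 with a mean of at least 0.5 FPKM (fragments scaled to transcript length and library depth) over the 20 libraries were tested. The other 10 libraries, from mice of 10 months, entered the level filter and the fit, where they share in the estimate of the spread. They therefore bear on which genes were called at 3 months. Their own values are given to place those of 3 months.

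Tau, the product of MAPT, binds and stabilises microtubules in axons, and the P301S change, found in inherited frontotemporal dementia, makes it prone to aggregate. In PS19 mice the transgene is expressed in neurons throughout the brain, and tau aggregates, gliosis and neuron loss build up with age. The mitochondrial genome encodes subunits of the respiratory chain and of ATP synthase, is transcribed as long precursors from both strands that are then processed into single RNAs, and depends on nuclear genes for all its transcription factors and for most respiratory subunits.

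Before the genotypes are compared, 1 division among the libraries has to be given. Gm26917, an annotated non-coding RNA, was at 3.81 to 17.3 FPKM in 7 libraries, among them TG03M replicates 2 to 5, and at 289 to 554 FPKM in the other 13, among them TG03M replicate 1 and all 5 WT03M libraries. In the same libraries 14 tested genes were lower, each with its highest value in the 7 below 1 in 3 of its lowest value in the 13, and 0 genes did so the other way round. At 3 months this library class and genotype cannot be told apart except through TG03M replicate 1, so its place is given for the genes with values in every library, and for all calls by count. Estimated depth was 22.6 to 30.1 M fragments in the 10 libraries of 3 months, 12659 to 12763 genes reached 1 FPKM in each, and log2 values of replicates correlated at 0.982 to 0.993. The labelled tissue was checked against cortical markers: Slc17a7, the vesicular glutamate transporter of cortical excitatory neurons, was at 296 to 339 FPKM in WT03M and 319 to 354 FPKM in TG03M.

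At 3 months 41 of 13722 tested genes (0.299%) differed between the genotypes at an adjusted p under 0.05 in limma with Benjamini-Hochberg adjustment, 38 of them higher in transgenic cortex (0.277%) and 3 lower (0.0219%). The rises comprised 6 of the 13 mitochondrially encoded protein genes, Prnp itself, 30 other nuclear genes and the low-level Gbp2b, described further on. In all 41 genes the 5 transgenic values lay apart from the 5 wild-type values, as they did in 2.01% of tested genes upward and 2.47% downward. TG03M replicate 1, being 1 of those 5, therefore lay beyond every wild-type library in all 41 genes, which is no separate result. It was the lowest transgenic library in 30 of the 38 rises. Most differences were small: without Gbp2b the median rise was 0.44 on the log2(FPKM + 0.5) scale, and 6 rises reached 1. Among these is the low-level Endou, whose limit is given further on. The number of calls rested on single libraries: it was 108 without TG03M replicate 1, 12, 21, 12 and 11 without TG03M replicates 2, 3, 4 and 5, and 15, 31, 12, 11 and 13 without WT03M replicates 1 to 5. The 10 genes that passed without each of the 10 libraries in turn were Prnp, mt-Cytb, mt-Nd4, mt-Nd1, Sh3bgrl3, Rac1, Hcfc1r1, Tmem106c, Olfr287 and Suclg1, and the other 31 lost their call without at least 1. Of these 10, Olfr287 passed the level filter only through groups other than WT03M. At an unadjusted p under 0.05 limma gave 793 higher and 661 lower genes (5.78 and 4.82%, together 10.6% of those tested). A fit of the 3-month libraries alone called 221 genes (1.61%), 99 higher and 122 lower, and 39 of the 41 were among them (0.721% higher and 0.889% lower of all tested). A fit of all groups without the 3 libraries of 10 months in the low Gm26917 class called 473 genes (3.45%), 210 higher (1.53%) and 263 lower (1.92%), with all 41 among them.

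**Figure D1:**
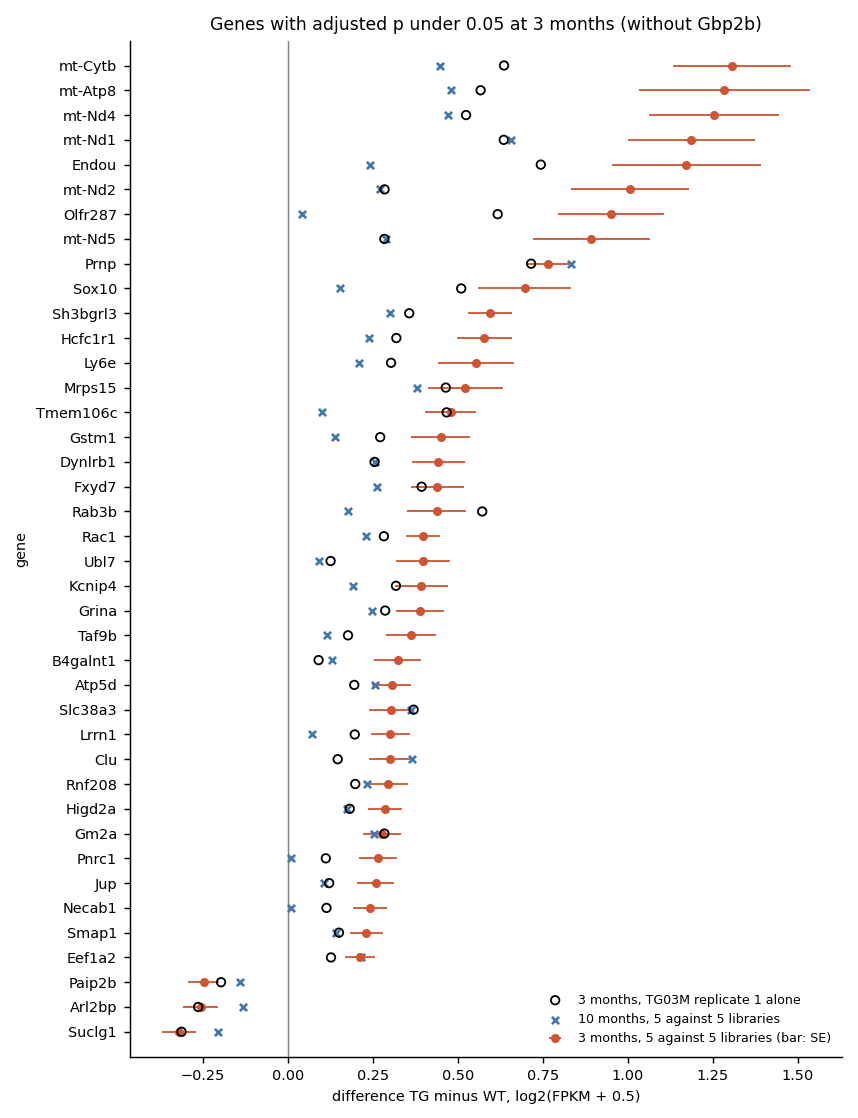
Genes past an adjusted p of 0.05 at 3 months, without Gbp2b, which is listed at 0 in wild type; the x axis is the transgenic minus wild-type difference on the log2(FPKM + 0.5) scale and each row is a gene. Filled points with bars are the differences with their SE over 5 against 5 libraries, open circles those of TG03M replicate 1 alone and crosses those at 10 months. The open circles lie on the same side of 0 as the filled points in every row, which follows from the groups lying apart in these genes.

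Prnp (ENSMUSG00000079037, chr2:131909928-131938429, plus strand, GRCm38) encodes the cellular prion protein, and its promoter drives the transgene. The promoter is printed because the label names it as the element both genes share; the 250 bases before the RefSeq start of Prnp (GRCm38.p6, chr2:131909678-131909927, plus strand) are given 5′ to 3′, with each GGGCGG on either strand, the core of the GC box bound by Sp1-type factors, in capitals.
Prnp promoter: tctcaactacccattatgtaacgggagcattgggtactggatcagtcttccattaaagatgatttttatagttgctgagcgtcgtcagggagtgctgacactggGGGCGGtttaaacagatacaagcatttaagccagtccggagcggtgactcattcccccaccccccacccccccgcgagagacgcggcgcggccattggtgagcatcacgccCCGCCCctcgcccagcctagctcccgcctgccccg
The window held 2 such matches, and 32.7% of 32851 RefSeq mouse promoter windows of the same length held at least 1. A match describes the letters and no binding.

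Prnp was at 434, 429, 426, 458 and 433 FPKM in WT03M replicates 1 to 5 and at 715, 743, 741, 695 and 812 FPKM in TG03M replicates 1 to 5. Every transgenic library was above every wild-type library, and replicate 1 stood within the transgenic range. The ratio to the wild-type mean was 1.64 for TG03M replicate 1 and 1.72 for replicates 2 to 5. With library class as a term in the fit its difference was 0.64 (limma, adjusted p = 1.92e-05), against 0.76 (SE 0.06, adjusted p = 1.25e-06) without it. All Prnp signal in the table comes from 1 transcript of 2184 bases, and whether fragments from the transgene's Prnp-derived sequence are counted in it was not tested.

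Human MAPT was not analysed here. The endogenous tau gene Mapt (ENSMUSG00000018411, chr11:104231390-104332090, plus strand) was at 152, 163, 147, 154 and 147 FPKM in WT03M and at 129, 119, 138, 159 and 147 FPKM in TG03M. The groups overlapped, and the difference of -0.15 (SE 0.07) did not pass (limma, adjusted p = 0.487). Its main transcript, ENSMUST00000106992, was at 86.2 ± 3.50 FPKM (SD, n = 5) in WT03M and 84.1 ± 5.60 FPKM in TG03M. A transcript of 293 bases, ENSMUST00000132245, was at 48.1 ± 6.22 FPKM in WT03M and 35.9 ± 13.4 FPKM in TG03M, and its difference did not pass either (limma, adjusted p = 0.509). Of the list of tau kinases, phosphatases and microtubule proteins 0 of 25 genes passed, with a median difference of -0.03 beside -0.002 over all tested genes, and 1 was lower at an unadjusted p under 0.05.

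The mitochondrial genome gave 6 of the calls. Of its 13 protein genes 6 passed (46.2% of these genes, against 0.277% of all tested), 7 had transgenic and wild-type libraries fully apart, and the median difference of the 13 was 0.89. mt-Cytb, the cytochrome b subunit of complex III (chrM:14145-15288), was at 443, 473, 447, 380.4 and 420.1 FPKM in WT03M and at 671, 1274, 901, 1281 and 1414 FPKM in TG03M. The wild-type libraries were close together, the transgenic libraries were all higher, and replicate 1 was the lowest of them. The mean was 433 ± 34.8 FPKM in WT03M and 1108 ± 310.2 FPKM in TG03M (SD, n = 5 each), a difference of 1.31 (SE 0.17; limma, adjusted p = 0.00112), with a ratio of 1.55 in replicate 1 and 2.81 in replicates 2 to 5.

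Of the complex I subunits, mt-Nd4 was at 188, 213, 207, 170.2 and 176 FPKM in WT03M and at 274, 503, 384, 587 and 619 FPKM in TG03M, a difference of 1.25 (SE 0.19; limma, adjusted p = 0.00518). mt-Nd1 was at 919, 989, 957, 878 and 916 FPKM in WT03M and at 1446, 2263, 1775, 2822 and 2609 FPKM in TG03M, a difference of 1.19 (SE 0.19; adjusted p = 0.00644). In both genes the groups were apart and TG03M replicates 1 and 3 were the lowest transgenic libraries. mt-Nd2 ranged from 257 to 298 FPKM in WT03M and from 333 to 749 FPKM in TG03M, a difference of 1.01 (SE 0.17; limma, adjusted p = 0.0163). mt-Nd5 ranged from 141 to 157 FPKM in WT03M and from 182 to 393 FPKM in TG03M, a difference of 0.89 (SE 0.17; adjusted p = 0.0307).

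mt-Atp8, a small subunit of ATP synthase, was at 4868, 4833, 4889, 4652 and 5115 FPKM in WT03M and at 7211, 11897, 9064, 20025 and 15049 FPKM in TG03M, a difference of 1.28 (SE 0.25; limma, adjusted p = 0.0324). Its reading frame overlaps that of mt-Atp6, which was listed at only 4.82 to 8.28 FPKM at 3 months, so how fragments were divided between overlapping mitochondrial genes bears on single genes, and both are uncertain. mt-Co1, the catalytic subunit of complex IV, was at 5998 to 6549 FPKM in WT03M and 8514 to 10633 FPKM in TG03M; its groups were apart, but the difference of 0.63 (SE 0.15) did not pass (limma, adjusted p = 0.106) and was -0.26 after quantile normalization. mt-Nd6, the only one of these genes coded on the other strand, differed by 0.66 (limma, adjusted p = 0.138), with overlapping groups. mt-Nd3 had overlapping groups: WT03M libraries lay between 792 and 992 FPKM, TG03M libraries at 733, 641, 976, 1566 and 1008 FPKM, and the difference was 0.06 (adjusted p = 0.948), or -0.12 without TG03M replicate 4. mt-Nd4l, mt-Co2, mt-Atp6 and mt-Co3 did not pass, with differences of 0.93, 0.23, 0.30 and -0.26.

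Summed over the 13 genes, mitochondrial mRNA made up 3.02 to 3.27% of all mRNA FPKM in the WT03M libraries and 4.37, 6.27, 4.99, 8.02 and 7.12% in TG03M replicates 1 to 5. All 5 transgenic sums were above all 5 wild-type sums, with replicate 1 again the lowest. In TG03M replicate 1 alone the median difference of the list was 0.32 with no replicate in that arm. With library class as a term the median was 0.60 and 0 passed (8 at an unadjusted p under 0.05), mt-Cytb keeping a difference of 1.07 (limma, adjusted p = 0.0682). The count of 6 was 7 without TG03M replicate 1, 3 without TG03M replicate 2, 4 or 5 or WT03M replicate 4 or 5, and between 4 and 6 without any other library. mt-Cytb, mt-Nd4 and mt-Nd1 passed in each case, while mt-Nd2 lost its call without any of 5 libraries, mt-Nd5 without any of 7 and mt-Atp8 without any of 8. At 10 months the list had a median difference of 0.27. Its summed level was 14254 to 30045 FPKM in wild type (WT10M) and 19217 to 28615 FPKM in transgenics (TG10M). In all 6 called genes the highest WT10M library was replicate 5, which is of the low Gm26917 class. It was at 1748 FPKM for mt-Nd1 and 718 FPKM for mt-Cytb, and the other WT10M libraries lay at 751 to 1038 and 404 to 508 FPKM. The part of library class in these 10-month values was not tested.

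**Figure D2:**
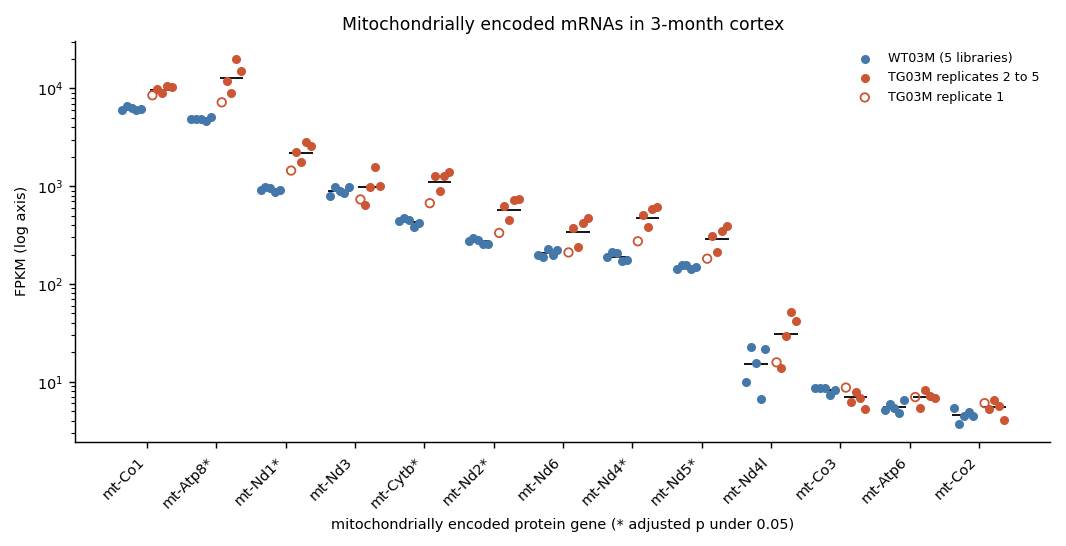
FPKM (log axis) of the 13 mitochondrially encoded protein genes in the 3-month libraries, 1 point per library, with black lines at group means and asterisks on genes past an adjusted p of 0.05. TG03M replicate 1 (open circle) lies between the wild-type libraries and TG03M replicates 2 to 5 in mt-Cytb, mt-Nd1, mt-Nd4 and mt-Atp8, and mt-Nd3 and mt-Co3 show no such separation.

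Nuclear genes of the same complexes are given beside the 0.299% of all tested genes that passed. At that share lists this short would hold few calls. Of the complex I subunits 0 of 37 passed (median -0.01), of complexes II and III 0 of 13 (median -0.07), of complex IV and cytochrome c 0 of 12 (median -0.01), and of ATP synthase 1 of 16 (median -0.03). That gene, Atp5d, the delta subunit of the catalytic part, was at 138, 143, 136, 128 and 135 FPKM in WT03M and at 156, 160.4, 169.9, 176 and 179.8 FPKM in TG03M; the groups were apart, with a difference of 0.30 (SE 0.06; limma, adjusted p = 0.0273). In the list of mitochondrial transcription and RNA processing 0 of 22 passed (median -0.01), among them Tfam, the packaging and transcription factor of mitochondrial DNA, with a difference of -0.11 (adjusted p = 0.67). Regulators of mitochondrial biogenesis gave 0 of 9 (median 0.01). At an unadjusted p under 0.05 limma gave 4, 1, 2 and 3 genes in the lists of complexes I, II and III, IV and V, 2 RNA processing genes and 1 regulator, beside 10.6% of all tested genes. One member of the RNA processing list stood apart and is named after its values were seen: Lars2, the mitochondrial leucyl-tRNA synthetase, was at 7.69 to 9.87 FPKM in WT03M and at 30.3, 204, 18.4, 183 and 104 FPKM in TG03M. Its groups did not overlap but the transgenic libraries scattered widely, and the difference of 2.98 (SE 0.84) did not pass (limma, adjusted p = 0.164). It passed in the fit of the 3-month libraries alone (limma, adjusted p = 0.0339), and its difference at 10 months was 4.64 (adjusted p = 0.0118). The Lars2 transcript holds a stretch that resembles mitochondrial ribosomal RNA, so its values are uncertain.

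Among the other mitochondrial proteins coded in the nucleus, 1 of the 3 falls and several rises were found. Suclg1, the alpha subunit of succinyl-CoA ligase in the citric acid cycle, was at 60.4, 61.1, 61.9, 59.8 and 61.9 FPKM in WT03M and at 49.0, 47.7, 50.7, 48.6 and 47.7 FPKM in TG03M. Both groups were tight and far apart, and replicate 1 sat inside the transgenic range. The mean changed by -20.1%, a difference of -0.32 (SE 0.05; limma, adjusted p = 0.00518), and it was -0.21 at 10 months (adjusted p = 0.0616). Mrps15, a protein of the small mitochondrial ribosomal subunit, was at 16.9 to 19.8 FPKM in WT03M and 25.7 to 28.2 FPKM in TG03M, a difference of 0.52 (SE 0.11; adjusted p = 0.0458). Higd2a, an assembly factor of complex IV named after its values were seen, was at 73.4 to 78.3 FPKM in WT03M and 85.6 to 97.5 FPKM in TG03M (0.28, adjusted p = 0.0198). Suclg1 passed without each library; the highest adjusted p on leaving out 1 library was 0.148 for Mrps15 and 0.0843 for Higd2a.

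The other falls were of similar size. Arl2bp, a binding partner of the small GTPase ARL2, was at 60.7 to 63.6 FPKM in WT03M and 49.1 to 54.7 FPKM in TG03M, a difference of -0.26 (SE 0.05; limma, adjusted p = 0.0367). Paip2b, a repressor of translation that binds poly(A)-binding protein, was at 23.6 to 25.4 FPKM in WT03M and 19.0 to 21.8 FPKM in TG03M, a difference of -0.25 (SE 0.04; adjusted p = 0.0198). All 3 falls were negative at 10 months as well, and none passed there.

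Sh3bgrl3 and Rac1 were, beside Prnp, the calls that also passed with library class as a term, a fit whose limit is given further on. Sh3bgrl3, a small protein with a thioredoxin-like fold, was at 57.8, 56.1, 52.9, 59.1 and 59.1 FPKM in WT03M and at 73.0, 91.4, 83.0, 94.0 and 91.4 FPKM in TG03M. The groups were apart and replicate 1 was the lowest transgenic library; the difference was 0.59 (SE 0.07; limma, adjusted p = 0.000132) and 0.47 (adjusted p = 0.00679) with class as a term. Rac1, a small GTPase that organises actin in spines and growth cones, was at 73.6, 73.3, 70.7, 69.6 and 70.6 FPKM in WT03M and at 87.1, 96.3, 92.3, 99.3 and 97.4 FPKM in TG03M. Again no library crossed over; the difference was 0.40 (SE 0.05; adjusted p = 0.000617), and 0.35 (adjusted p = 0.0349) with class as a term. Most of it lay in transcript ENSMUST00000100489, at 52.0 ± 2.27 FPKM in WT03M and 71.7 ± 4.10 FPKM in TG03M (limma over transcripts, adjusted p = 0.00377), while the longer ENSMUST00000080537 was at 19.5 ± 1.12 and 22.8 ± 1.15 FPKM (adjusted p = 0.199; SD, n = 5 each). Dynlrb1, a light chain of cytoplasmic dynein, was at 154 to 173 FPKM in WT03M and 196 to 239 FPKM in TG03M (0.44, adjusted p = 0.0166).

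With class as a term 4 genes passed (0.0292%): Prnp, Sh3bgrl3, Rac1 and Pdk2, a kinase that inhibits pyruvate dehydrogenase, which was not among the 41 and is named after its values were seen. Pdk2 was at 12.8 to 15.1 FPKM in WT03M and 16.9 to 19.7 FPKM in TG03M, a difference of 0.37 (limma, adjusted p = 0.263) that became 0.70 (adjusted p = 0.00679) with the term. Hcfc1r1, a regulator of the transcriptional cofactor HCF-1, was at 38.8, 29.7, 35.4, 32.2 and 34.6 FPKM in WT03M and at 42.5, 52.8, 50.3, 55.0 and 55.6 FPKM in TG03M, a difference of 0.58 (SE 0.08; adjusted p = 0.00214). Its replicate 1 was only a little above the highest wild-type library. Ly6e, a membrane-anchored protein of the Ly6 family, was at 65.7 to 91.9 FPKM in WT03M and 95.0 to 139 FPKM in TG03M (0.55, adjusted p = 0.0375). Gstm1, a glutathione transferase with close paralogs that could share its fragments, was at 56.9 to 64.5 FPKM in WT03M and 73.1 to 100.3 FPKM in TG03M (0.45, adjusted p = 0.0324).

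Other rises, named after their values were seen and with no list behind them, were the following. Grina, a membrane protein linked to glutamate receptors, was at 126, 128, 123, 127 and 125 FPKM in WT03M and at 153, 169, 159, 171 and 172 FPKM in TG03M, a difference of 0.39 (SE 0.07; limma, adjusted p = 0.0232). The groups were far apart for their spread, and replicate 1 was the lowest transgenic library. Fxyd7, a regulator of the sodium pump, was at 47.0 to 57.4 FPKM in WT03M and 67.7 to 82.1 FPKM in TG03M (0.44, adjusted p = 0.0198). Rab3b, a GTPase of synaptic vesicles, was at 21.7 to 24.1 FPKM in WT03M and 26.8 to 34.9 FPKM in TG03M (0.44, adjusted p = 0.0329), and here replicate 1, at 34.0 FPKM, was among the highest. Kcnip4, an accessory subunit of A-type potassium channels, was at 21.6 to 23.3 FPKM in WT03M and 27.8 to 31.3 FPKM in TG03M (0.39, adjusted p = 0.0324). Eef1a2, the translation elongation factor of neurons and muscle, was at 437 to 470.1 FPKM in WT03M and 501 to 554 FPKM in TG03M (0.21, SE 0.04; adjusted p = 0.0449). The remaining rises were Ubl7, Taf9b, B4galnt1, Lrrn1, Rnf208, Pnrc1, Jup, Necab1 and Smap1, with differences of 0.40, 0.36, 0.32, 0.30, 0.29, 0.26, 0.26, 0.24 and 0.23. Of the listed synaptic genes 0 of 17 presynaptic and 0 of 18 postsynaptic passed, with medians of 0.01 and 0.00. Over all tested genes 0.299% passed, so lists this short would hold few calls and the counts say little. At an unadjusted p under 0.05 limma gave 3 and 1 higher genes, beside 5.78% of all tested genes, and 0 lower in both lists.

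The glial lists held 1 call, and their medians were small. In bulk tissue fewer cells of a type and less RNA per cell cannot be told apart. Sox10, the transcription factor that defines the oligodendrocyte lineage, was at 3.96, 6.29, 4.19, 4.42 and 5.37 FPKM in WT03M and at 7.01, 9.29, 9.35, 6.96 and 7.97 FPKM in TG03M. The groups were apart, with a difference of 0.70 (SE 0.14; limma, adjusted p = 0.0324) at 3 months and 0.15 (adjusted p = 0.622) at 10 months. It was the only one of 13 oligodendrocyte precursor genes to pass. All 13 differences were positive (median 0.14), beside 6751 of 13722 over all tested genes, and 4 were higher at an unadjusted p under 0.05 in limma. Of 14 oligodendrocyte and myelin genes 0 passed and 4 were higher at that level (median 0.10). Of all tested genes 5.78% were higher at that level. The summed level of the myelin list was 1554 to 1729 FPKM in WT03M and 1781 to 2138 FPKM in TG03M without overlap. Mbp, myelin basic protein, came nearest at 695 to 794 against 853 to 1110 FPKM (0.33, limma adjusted p = 0.0516).

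Clu, the secreted chaperone clusterin, made largely by astrocytes, was at 306, 324, 290.4, 324 and 318 FPKM in WT03M and at 345, 386, 368, 442 and 385 FPKM in TG03M. The groups were apart, with a difference of 0.30 (SE 0.06; limma, adjusted p = 0.0375) at 3 months and 0.36 (adjusted p = 0.00580) at 10 months. Slc38a3, a glutamine transporter of astrocytes, was at 18.3 to 21.4 FPKM in WT03M and 21.9 to 25.9 FPKM in TG03M (0.30, adjusted p = 0.0458), and at 10 months its difference was 0.36 (adjusted p = 0.00901). Gm2a, the lysosomal activator protein for GM2 ganglioside breakdown, was at 11.2 to 12.1 FPKM in WT03M and 13.8 to 14.4 FPKM in TG03M (0.28, adjusted p = 0.0375). Clu, Slc38a3 and Gm2a were named after their values were seen. Without 1 library the adjusted p reached 0.139 for Clu, 0.149 for Slc38a3 and 0.111 for Gm2a.

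At 10 months 87 genes differed between the genotypes (0.634%), and 8 genes passed at both ages, 19.5% of the calls at 3 months and 9.20% of those at 10 months. These were Prnp, Sh3bgrl3, Rac1, Atp5d, Clu, Slc38a3, Gm2a and Eef1a2. All 38 rises had a positive difference at 10 months, with a median of 0.23 without Gbp2b, beside 0.0006 over all tested genes. Of the 10-month libraries WT10M replicate 5 and TG10M replicates 1 and 5 are of the low Gm26917 class. The part of this imbalance in the differences at 10 months was not tested. A test of the difference between the ages passed for 5 genes (0.0364%), 0 of them among the 41, of which 20 had an unadjusted p under 0.05 in it: Cst7, Gfap, C4b, Cyba and Ctsz, genes of activated microglia, astrocytes and complement, named after their values were seen. Gfap, the intermediate filament of reactive astrocytes, was at 42.6, 41.3, 43.6, 51.5 and 42.6 FPKM in WT03M and at 37.9, 34.9, 44.7, 49.5 and 47.7 FPKM in TG03M, with full overlap, while TG10M libraries lay between 84.8 and 182 FPKM. Its genotype difference was -0.05 at 3 months and 1.34 at 10 months (limma, adjusted p for the difference between ages = 0.0122), and the sign at 3 months turned without WT03M replicate 4 (0.0012) or TG03M replicate 2 (0.017). At 3 months the differences of Cst7, C4b, Cyba and Ctsz were -0.07, 0.05, -0.13 and -0.05, and at 10 months 2.20, 1.08, 0.75 and 0.56.

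The immune and glial lists had medians near 0 at 3 months. None of 14 disease-associated microglia genes (median 0.03), 12 homeostatic microglia genes (0.09), 12 complement and Fc receptor genes (0.06), 12 antigen presentation genes (0.07), 15 interferon response genes (0.08) or 12 reactive astrocyte genes (0.14) passed; at an unadjusted p under 0.05 limma gave 3, 2, 1, 0, 1 and 0 of them, beside 10.6% of all tested genes. At 10 months the medians of the first and the last 4 of these lists were 0.44, 0.47, 0.64, 0.49 and 0.32. Trem2, the microglial lipid receptor needed for the disease-associated state, was at 7.53 to 8.72 FPKM in WT03M and 5.13 to 7.59 FPKM in TG03M at 3 months, a difference of -0.27 (limma, adjusted p = 0.477). It does not stand for the 14 disease-associated microglia genes, of which 8 differences were positive and 6 negative, from -0.27 to 1.06 (Spp1). The 3 of them at an unadjusted p under 0.05 in limma were all higher. Stress lists were likewise without calls: 0 of 22 cytosolic chaperones (median 0.07), 0 of 17 unfolded protein response genes (0.15), 0 of 26 proteasome genes (-0.04) and 0 of 32 cytosolic ribosome genes (-0.07). At an unadjusted p under 0.05 limma gave 2, 1, 2 and 9 of these, beside 10.6% of all tested genes; of the 9 ribosomal genes 7 were lower, beside 4.82% of all tested genes.

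Of 42 gene lists 39 had no called member, beside 0.299% of all tested genes called, and 30 medians lay within 0.1 of 0. The largest list median, 0.96, was that of choroid plexus genes, of which 0 of 10 passed, and 2 libraries stood out in it. Ttr (also named after its values were seen), transthyretin, the main secreted protein of the choroid plexus, was at 14.5, 31.3, 9.79, 15.4 and 4.79 FPKM in WT03M and at 810.4, 56.5, 8.62, 996 and 8.72 FPKM in TG03M. TG03M replicates 1 and 4 were far above all others and replicates 3 and 5 lay within the wild-type range (limma, adjusted p = 0.526). Immediate early genes, which respond to neuronal activity, had a median of 0.37 with 0 of 18 passing; the median was 0.15 without WT03M replicate 4 and -0.49 in TG03M replicate 1 alone. Fos differed by 0.67 (adjusted p = 0.610). Striatal markers, which would mark tissue next to the cortex, had a median of -0.17 with 0 of 14 passing, and their summed level overlapped, at 246 to 585 FPKM in WT03M and 257 to 585 FPKM in TG03M. Inhibitory neuron genes had a median of 0.05 with 0 of 14 passing. Of the 14 differences 8 were positive and 6 negative, from -0.30 to 0.38. Upward, 4 genes had groups apart, beside 2.01% of all tested genes, among them Gad1, Sst and Cck with differences of 0.21, 0.32 and 0.38. The summed level of the 14 was 1109 to 1245 FPKM in WT03M and 1304 to 1494 FPKM in TG03M, without overlap. Cck alone was at 445 to 550 FPKM in WT03M and 557 to 753 FPKM in TG03M, so it weighs heavily in that sum. At an unadjusted p under 0.05 limma gave 5 choroid plexus, 0 immediate early, 0 striatal and 4 inhibitory neuron genes, beside 10.6% of all tested genes. The part of choroid plexus RNA in the calls was not tested.

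**Figure D3:**
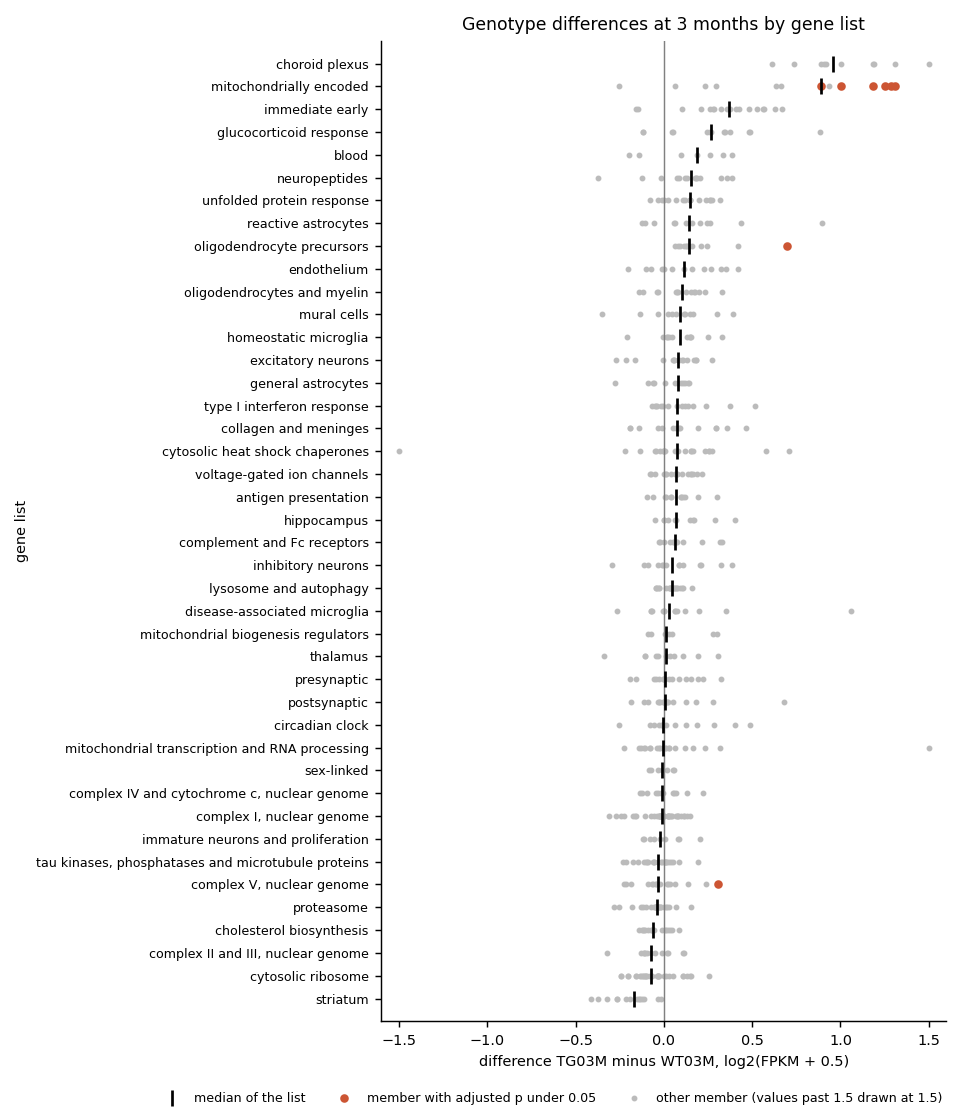
Transgenic minus wild-type differences at 3 months (x axis, log2(FPKM + 0.5) scale; values past 1.5 drawn at 1.5) for the members of 42 gene lists (rows, ordered by median). Black bars are list medians, red points the members past an adjusted p of 0.05 and grey points the others; only the mitochondrially encoded list has more than 1 red point, and 30 medians lie within 0.1 of 0.

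By position, 6 of 544 tested genes on chromosome 15 were called (1.10%, against 0.299% of all tested genes): Ly6e, Grina, Sox10, Endou, Tmem106c and Olfr287. That was the largest share of any nuclear chromosome. It counts Endou and Olfr287, which passed the level filter only through groups other than WT03M, so it is given as description only. Endou, Tmem106c and Olfr287 lie within 1 stretch, chr15:97711015-98221056. Its ends were set by the outer 2 of these genes, so that their share of its 10 tested genes follows from that choice. Endou, a poly(U)-specific endoribonuclease, was at 0.227, 0.247, 0.313, 0.161 and 0.121 FPKM in WT03M and at 0.690, 1.40, 1.42, 0.700 and 1.52 FPKM in TG03M, a difference of 1.17 (SE 0.22). Olfr287, an olfactory receptor gene, was at 0.241, 0.215, 0.360, 0.329 and 0.442 FPKM in WT03M and at 0.747, 1.18, 1.17, 1.06 and 1.24 FPKM in TG03M, a difference of 0.95 (SE 0.16). Both were below 0.5 FPKM in every WT03M library and passed the level filter only through the other groups, so their calls are given with no p. Both are low, so the scale understates their change, and both are named after their values were seen. Tmem106c, a membrane protein of the TMEM106 family, was at 8.92, 8.95, 8.69, 8.99 and 9.84 FPKM in WT03M and at 12.7, 13.1, 13.8, 11.8 and 12.8 FPKM in TG03M, a difference of 0.48 (SE 0.08, limma adjusted p = 0.00644).

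In all 3 of these genes it was the young wild-type group that stood apart from the other groups. Endou was at 0.855 to 1.73 FPKM in WT10M and 0.753 to 2.67 FPKM in TG10M, Olfr287 at 0.596 to 1.16 and 0.523 to 1.57 FPKM, and Tmem106c at 11.2 to 14.8 and 12.5 to 15.8 FPKM. Each range of the 10-month groups lay above every WT03M library and overlapped TG03M. The test of a change of the genotype difference with age did not pass for Tmem106c (limma, adjusted p = 0.724). For Endou and Olfr287 it did not pass either and is given with no p. That test does not compare young wild type with the other groups, so whether WT03M stands apart was not tested. Gbp2b, an interferon-induced guanylate-binding protein gene in a cluster of close paralogs on chromosome 3, was listed at 0 in all 5 WT03M libraries and at 0.676, 0.587, 0.555, 0.705 and 0.805 FPKM in TG03M. It passed the level filter only through its values in the other groups, so its call is given with no p. It was listed at 0 in WT10M replicates 2 and 3 too, and at 0.493 to 0.845 FPKM in the other WT10M libraries and 0.872 to 1.52 FPKM in TG10M. It was the only call among 9 tested genes within 500 kb to either side, and it was named after its values were seen. Over all 38 rises, the WT10M mean was above every WT03M library in 20, or in 12 without WT10M replicate 5, which is of the low Gm26917 class, and all 5 WT10M libraries were above all 5 WT03M libraries in 7.

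**Figure D4:**
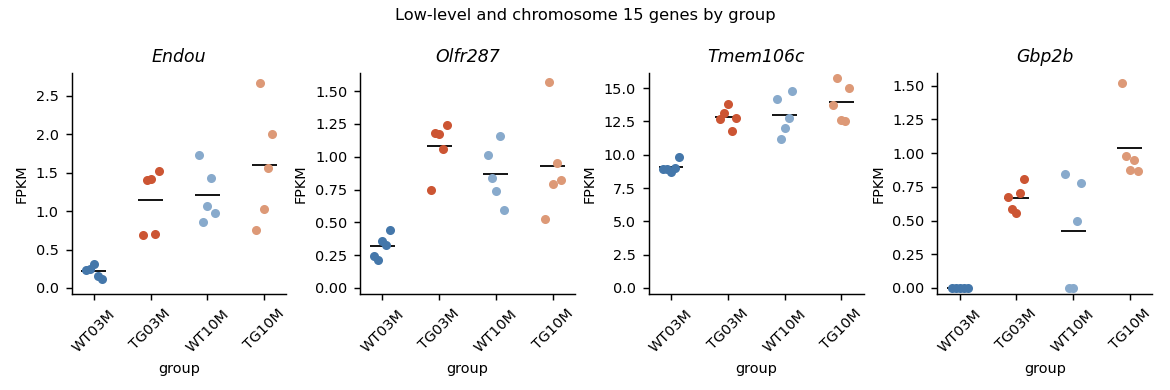
FPKM (linear axes) of Endou, Olfr287, Tmem106c and Gbp2b in each library of the 4 groups, with black lines at group means. The 5 WT03M libraries are below every TG03M library in all 4 genes, and for Endou, Olfr287 and Tmem106c they are also below every WT10M and TG10M library.

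In the 14 genes that mark the library class, replicate 1 sat with the wild-type libraries, but in the non-coding RNA LNC_000226 it lay between. That RNA was at 30840 to 44834 FPKM in WT03M, 21156 FPKM in TG03M replicate 1 and 2781 to 5676 FPKM in TG03M replicates 2 to 5. The 14 genes, chosen from the values of all 20 libraries, replicate 1 included, were Hsp90aa1, Rpl12, Cmtr1, Rrnad1, Dis3, Exosc5 and 8 genes whose symbols start with Rrp, most of which act in ribosomal RNA processing. Hsp90aa1, the stress-inducible cytosolic HSP90, was at 547, 687, 566, 610.2 and 625 FPKM in WT03M and at 560.3, 20.5, 17.3, 20.3 and 16.2 FPKM in TG03M. Replicate 1 was within the wild-type range and the other transgenic libraries were far below it. The fitted difference of -4.02 (SE 1.23) did not pass (limma, adjusted p = 0.213) and was 0.098 with class as a term. By that choice replicate 1 sits with wild type in all 14 genes; 0 of the 14 passed at 3 months, and 11 passed in the fit of the 3-month libraries alone, among its 122 lower genes. The class coincides with the transgenic group in 4 of 5 libraries. As a term in the fit, class is given 1 shift shared by both ages. On the first principal component over all 20 libraries its 10-month members lay at 26.2 to 30.9 and TG03M replicates 2 to 5 at -1.9 to 2.3. Whether 1 shift holds at both ages was not tested, so passes and losses with the term are uncertain. With class as a term 3 of the 41 calls passed, while all 41 kept their direction, and the median rise without Gbp2b was 0.35 against 0.44. Of the 41 differences 9 were as large or larger, such as that of Sox10 (0.84, limma adjusted p = 0.0682) and the low-level Olfr287 (1.09). The differences of 36 of the 41 were larger over all 5 transgenic libraries than in replicate 1 alone.

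**Figure D5:**
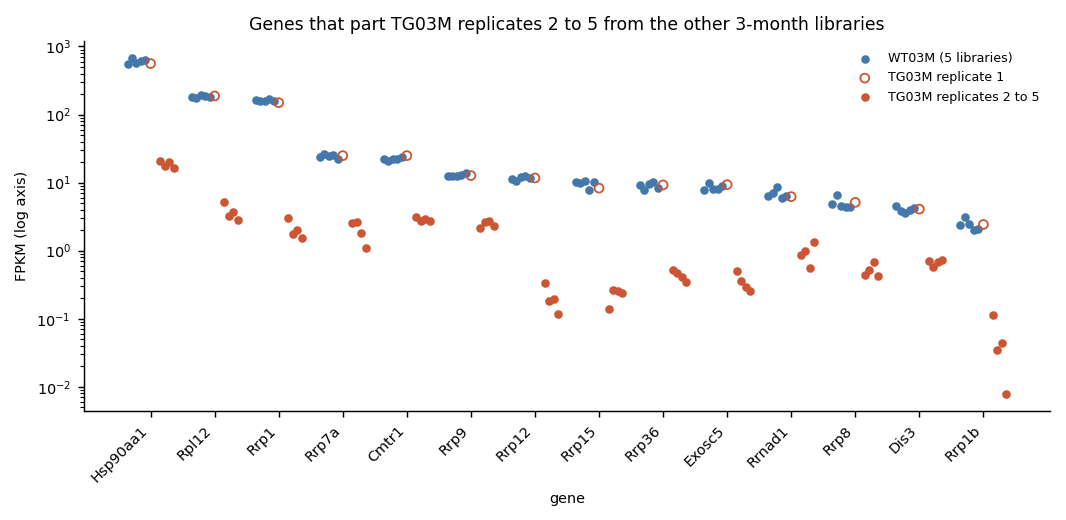
FPKM (log axis) of the 14 genes that part the library classes, in the 3-month libraries, 1 point per library. TG03M replicate 1 (open circle) sits with the 5 WT03M libraries, and TG03M replicates 2 to 5 lie below them in every gene.

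The called rises were mostly short transcripts. By the length of the main transcript, 21, 13, 3 and 1 of the 38 rises fell in the 4 length bins of nearly equal size, from shortest to longest (0.614, 0.380, 0.0879 and 0.0292% of each bin), and the 32 nuclear rises had a median length of 1750.5 bases against 2863 bases over all tested genes. The median difference of all genes moved little with length, from -0.015 in the shortest bin to 0.0047 in the longest. By GC content of the main transcript the 4 bins held 10, 6, 9 and 13 rises. Whether transcript length plays a part in the calls was not tested.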

How the data were processed

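The values are FPKM per transcript, computed and deposited by the authors; the submitters' processing notes name CASAVA, TopHat2, Cuffdiff and DESeq2 and the builds GRCm38 and mm10, without saying what each did. Mouse cortex RNA was sequenced in 20 libraries, 5 per genotype and age; the FPKM of the transcripts of each gene ID were summed here. Two-sided tests were run on genes averaging 0.5 FPKM or more with limma 3.58.1 in R 4.3.3 on log2(FPKM + 0.5), with 4 group means, a mean-variance trend in eBayes, 16 residual degrees of freedom and Benjamini-Hochberg adjustment over all tested genes; fold changes on this scale understate those of low genes. The procedure was tested on simulated data. A second deposited table of all transcripts gave the non-coding RNA values. Depth was estimated from the step between low FPKM values, a step taken as whole within 0.1; FPKM give no counts, so counting intervals are not given. Gene symbols stored as dates (27) were restored by gene ID, and 21753 of 21949 gene IDs matched the annotation. Per-sample columns left unused numbered 0.

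Genes were named by rule: the 15 largest rises and 15 largest falls past the threshold with a mean of at least 1 FPKM, the 10 smallest p-values, leaving out predicted gene models, with Prnp, Mapt, Hsp90aa1, the 13 mitochondrially encoded protein genes, every called list member, up to 4 members of smallest p in a list described, and the 3 of highest mean in a list whose sum is given. Others are marked as named after their values were seen. The comparison, the gene lists and the rule were chosen with earlier results of these data known. Alternatives were other pseudocounts, filters and scalings, the 3-month libraries alone, array weights, eBayes settings, transcripts in place of genes, a replicate block and leaving out each library; library class as a term and TG03M replicate 1 alone were added after seeing the data. No 2 replicates were copies of each other: at most 0.00578% of nonzero values were identical.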

Additional observations from a re-analysis of the deposited data

Results flagged for a closer look

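In 91 genes examined over 182 groups of 5 libraries, 13 groups held a library far from the other 4 by Dixon's criterion, and chance gives about 1 such group in 20. In WT03M these were replicate 4 at 458 FPKM for Prnp (highest), 51.5 FPKM for Gfap (highest) and 7.38 FPKM for mt-Co3 (lowest), replicate 5 at 9.84 FPKM for Tmem106c (highest), and replicate 2, highest at 42.3 FPKM for Cryab, a small heat shock protein, 0.978 FPKM for Timp1, 2.05 FPKM for Bag3 and 10.9 FPKM for Hsf1. In TG03M they were replicate 1 at 560.3 FPKM for Hsp90aa1 (highest) and 42.0 FPKM for Necab1 (lowest), replicate 3 at 21.9 FPKM for Slc38a3 (lowest) and 11.1 FPKM for Axl (lowest), and replicate 4 at 6.08 FPKM for Prlr (highest), a gene strongly expressed in choroid plexus. The Prnp and Tmem106c values lie toward the transgenic group, and both genes passed without those libraries.

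The genotype difference was larger at 10 than at 3 months for 5 genes, by 2.27 for Cst7, 1.40 for Gfap, 1.03 for C4b, 0.88 for Cyba and 0.61 for Ctsz on the log2 scale (limma interaction, adjusted p from 0.000419 to 0.0465, n = 5 libraries per group).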

How the results depend on the processing

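Against 41 calls at 3 months (38 higher, 3 lower), 3 lists with a call, 6 mitochondrial genes and 5 differences between ages, the 3-month libraries alone gave 221 calls (99 higher, 122 lower) and 14 lists. Array weights gave 261 (167, 94), 12 lists and 10 differences between ages. Leaving out the 3 libraries of 10 months in the low Gm26917 class gave 473 (210, 263) and 22 lists. No filter gave 22 (19 higher), transcripts in place of genes 22 (19 higher) with 3 differences between ages, and a mean of at least 1 FPKM 3 differences between ages. Quantile normalization gave 5 lower genes and 5 lists. In all these, the cause was not tested. Of the alternatives added after seeing the data, library class as a term gave 4 (4 higher, 0 lower), 0 lists and 0 mitochondrial genes, and TG03M replicate 1 alone, where the other groups supply the spread and a lost call says little, gave 3 (2, 1), 0 lists, 0 mitochondrial genes and 1 difference between ages.

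Leaving out 1 library gave 11 to 108 calls, 10 to 68 higher, 1 to 40 lower, 4 to 6 differences between ages, 1 to 7 lists, 3 to 7 mitochondrial genes and 0.73 to 0.79 for Prnp, which passed in each case. Replicate numbers did not pair the libraries (same-number correlations of deviations from -0.42 to 0.10, and 2 libraries correlated best with their own number); a replicate block gave 29 calls, 27 higher and 2 lower, and 6 mitochondrial genes. Of 1050 list medians computed, 1015 moved by less than 1 SD.

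Signs reversed in TG03M replicate 1 alone for Spp1 (-0.30), Fos (-0.34), Fosb (-0.53), Egr4 (-0.21), Egr3 (-0.61), Timp1 (-0.0017), Cd68 (-0.013), Bag3 (-0.12), Hsf1 (-0.12), Tgm2 (-0.073), Olig1 (-0.0081), Cp (-0.061), mt-Nd3 (-0.29), Ctsz (0.043), Cst7 (0.0025), Stmn3 (0.0023) and mt-Co3 (0.066). They reversed with class as a term for Atp5g1 (-0.0054), Cp (-0.0051), mt-Nd3 (-0.28), Ctsz (0.024), Gfap (0.094), Stmn2 (0.10) and Hsp90aa1 (0.098), with quantile normalization for mt-Co1 (-0.26), without TG03M replicate 4 for mt-Nd3 (-0.12; range -0.12 to 0.20 over single libraries left out), and without TG03M replicate 2 (0.017) or WT03M replicate 4 (0.0012) for Gfap (range -0.11 to 0.017); of these genes 0 had passed at 3 months in limma. Depth limits genes near 0.5 FPKM, where 1 fragment is a large step.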
